A study of Mus musculus with 2 samples.

Results

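The Fc receptor genes were followed through hypothalamic microglia that had or had not taken up plasma protein: Fcgr1, Fcgr2b, Fcgr3, Fcgr4, Fcer1g, Fcgrt and Fcrls. The 7 were listed by name, as candidate routes for plasma immunoglobulin and albumin, out of 31053 genes in the deposited tables, and all 7 had counts in both libraries. Microglia, the resident macrophages of the brain, came from the hypothalamus of young wild-type mice, several animals being pooled, and were sorted by fluorescence 20 hours after the mice received plasma protein tagged with a dye. Cells without the dye made the plasma-negative library and cells with it the plasma-positive library. All mice received the tagged protein, so that both groups share the injection, and no uninjected group was analysed here. There was 1 droplet library per group, made with the Chromium Single Cell 3' v3.1 kit, which tags each captured transcript with its own molecular barcode (UMI), so that copies are counted once. With 1 library per group no difference has a replicate check, no test was run, and each interval given is a 95% interval for counting error only.

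Fc receptors bind the constant part of antibodies. In mice Fcgr1, Fcgr3 and Fcgr4 encode activating receptors for IgG, which signal through the shared gamma chain encoded by Fcer1g and its immunoreceptor tyrosine-based activation motif (ITAM), whereas Fcgr2b encodes the inhibitory IgG receptor, which carries its own inhibitory motif. Fcgrt encodes the heavy chain of the neonatal Fc receptor FcRn, which pairs with beta-2-microglobulin (B2m), binds IgG and albumin in acidic endosomes and returns them from degradation. Fcrls encodes an Fc receptor-like protein known as a marker of microglia against other macrophages, and it is not an established receptor for IgG.

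After cells with under 500 UMIs, under 300 genes or over 10% mitochondrial UMIs were left out, the plasma-negative library kept 9860 of 9878 cells and the plasma-positive library 10362 of 10390, with 34534518 and 41984977 UMIs. Plasma-positive cells were deeper, with a median of 3753 UMIs against 3270.5, so shares of cells are given after each cell was thinned at random to 1000 UMIs, which left out 796 plasma-negative and 603 plasma-positive cells. The label was checked against 11 microglia markers, of which at least 4 had UMIs in 99.7% of the cells of each library. Summed markers of several other cell types are given in CPM, the UMIs of a gene per 1000000 UMIs of the library. Border-associated macrophage markers summed to 3.94 and 7.05 CPM, with 5 and 2 of 10 at 0, Lyve1 and Cd209f in both. Monocyte markers summed to 7.56 and 12.6 CPM, with 4 of 8 at 0 in each, Ly6c2 included. Of these, Ms4a4c went from 3.74 to 8.86 CPM, while Ccr2 was at 2.55 and 1.81 CPM. B cell markers summed to 48.1 and 48.7 CPM, above the level of Fcgr4, with 5 and 6 of 7 at 0 and 1661 and 2046 of 1662 and 2046 UMIs from Cd79b. Neutrophil markers summed to 0.927 and 0.929 CPM, with 6 of 8 at 0 in each. Dendritic cell markers summed to 3.74 and 3.07 CPM. Endothelial cell markers summed to 24.0 and 22.0 CPM, of which Pecam1 gave 22.2 and 19.6 CPM. All 6 mast cell markers were at 0 in both libraries. No cell type lacking the receptors was at hand to give the share of cells that free RNA produces.

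The promoters of Fcgr4 and Fcgr1 are shown because these genes stood highest among the 7 in cells with interferon-induced transcripts, described further on. Each window runs from 250 bases before to 50 bases after the RefSeq start of the gene (GRCm38.p6), in lower case with matches in capitals. The motifs were searched on both strands: GAGGAA, the core bound by the myeloid factor PU.1, TTCNNNGAA, the pattern bound by STAT factors, and a pattern bound by interferon regulatory factors (IRF), which is GAAA, any 2 bases and GAAA again. Positions count bases from the start.
Fcgr4, chr1:171018676-171018975, plus strand: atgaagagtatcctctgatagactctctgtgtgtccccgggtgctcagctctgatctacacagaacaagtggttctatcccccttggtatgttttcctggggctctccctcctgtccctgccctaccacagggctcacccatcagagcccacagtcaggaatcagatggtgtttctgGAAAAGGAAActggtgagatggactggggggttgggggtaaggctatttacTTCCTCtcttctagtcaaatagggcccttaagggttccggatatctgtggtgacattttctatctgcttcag
Fcgr1, chr3:96293920-96294219, minus strand: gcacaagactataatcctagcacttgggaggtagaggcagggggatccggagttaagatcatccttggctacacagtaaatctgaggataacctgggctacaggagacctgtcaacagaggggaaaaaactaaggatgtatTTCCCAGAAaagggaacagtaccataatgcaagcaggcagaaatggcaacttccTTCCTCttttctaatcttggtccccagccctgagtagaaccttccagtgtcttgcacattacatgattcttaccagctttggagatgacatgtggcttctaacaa
The Fcgr4 window held an IRF match, GAAAAGGAAA, at -73 and a PU.1 match on the opposite strand, TTCCTC, at -22. The Fcgr1 window held a STAT match, TTCCCAGAA, at -109 and a PU.1 match on the opposite strand at -55. Of 32851 RefSeq promoter windows of this length, 3.44% held the IRF pattern, 8.30% the STAT pattern and 28.3% the PU.1 core. All 7 genes had a window in the table. The PU.1 core was also found for Fcgr3 and Fcrls, and none of the 3 patterns was found for Fcer1g, Fcgr2b or Fcgrt. A match describes letters and not binding.

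The genes lie on 3 chromosomes (GRCm38, GENCODE M21, all protein-coding). Fcgr2b (ENSMUSG00000026656, 170958617 to 170976547, minus strand), Fcgr4 (ENSMUSG00000059089, 171018920 to 171029761, plus strand), Fcgr3 (ENSMUSG00000059498, 171051174 to 171064935, minus strand) and Fcer1g (ENSMUSG00000058715, 171229572 to 171234365, minus strand) share a 275.7 kb stretch of chromosome 1. Fcgr1 (ENSMUSG00000015947, 96282909 to 96293969) and Fcrls (ENSMUSG00000015852, 87250758 to 87263738) lie on the minus strand of chromosome 3, and Fcgrt (ENSMUSG00000003420, 45092990 to 45103851) on that of chromosome 7. Transcripts of Fcgr2b and Fcgr3 shared 238 stretches of 30 bases, of 3628 and 1627 in all, and within their last 500 bases 79 of 1490 stretches of Fcgr2b and 6 of 962 stretches of Fcgr3 also occurred in the other gene. The treatment of such reads was not stated, so the split between these 2 genes is uncertain, while no other pair of the 21 shared a stretch. Antisense genes overlap Fcgr2b (Gm38204, 0 and 1 UMI) and Fcgrt (Gm45669, 0 UMIs in both libraries).

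In both libraries the gamma chain was the most abundant transcript and Fcgr4 the rarest, and all 7 genes were higher in the plasma-positive library. The difference was small for 6 genes, with log2 ratios of plasma-positive over plasma-negative from 0.04 to 0.16, and 1.64-fold for Fcgr4. A UMI marks 1 molecule counted near its 3' end, so levels were not divided by gene length, although transcripts may be captured unequally. From the highest level down the order was Fcer1g, Fcrls, Fcgr3, Fcgr1, Fcgr2b, Fcgrt and Fcgr4 in each library. Neighbours in that order differed by 1.41-fold or more, the smallest step being Fcgr1 over Fcgr2b in the plasma-positive library (1.37 to 1.44). Together the 7 genes made up 0.541% of all UMIs in the plasma-negative library and 0.591% in the plasma-positive one.

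**Figure D1:**
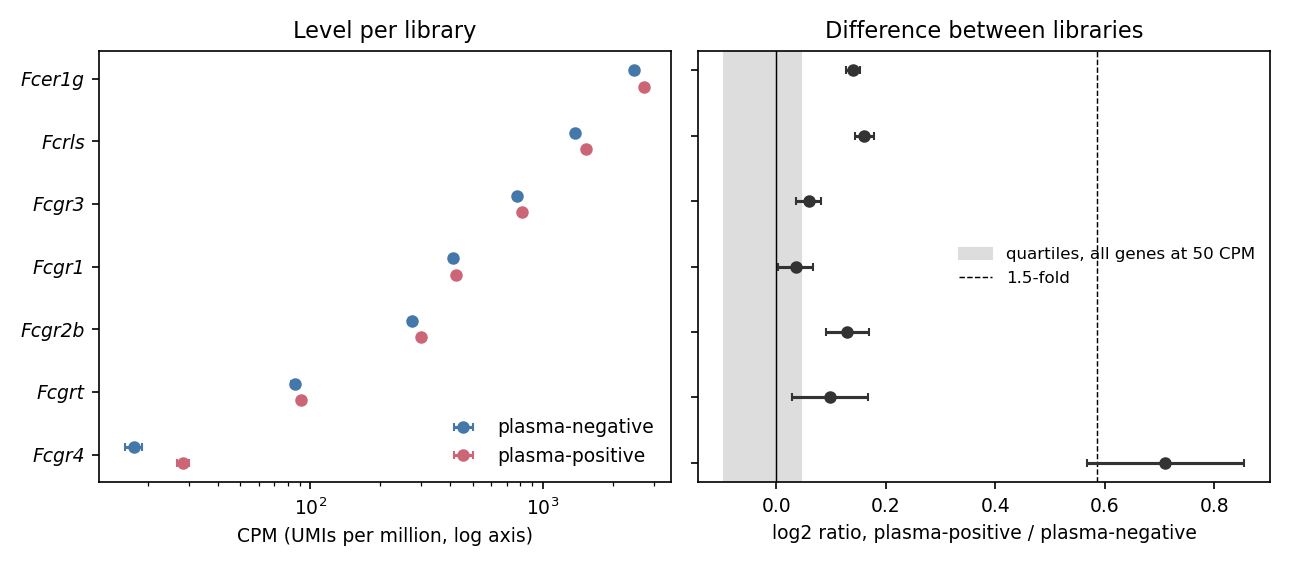
Left, level of each gene in CPM (log axis) in the plasma-negative and plasma-positive library, with exact Poisson intervals. Right, log2 ratio of the libraries with exact conditional binomial intervals, beside the quartiles of 3540 genes at 50 CPM or more (grey) and the 1.5-fold line. Fcgr4, at 17.4 and 28.5 CPM, is the lowest gene and the one past 1.5-fold.

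Of the activating receptors, Fcgr3, a low-affinity receptor that binds immune complexes, was the most abundant. Plasma-negative cells held 777 CPM (768 to 787) of it and plasma-positive cells 810 CPM (801 to 818), which is 0.06 higher on the log2 scale (0.04 to 0.08). Fcgr1, the high-affinity receptor, which also binds single IgG molecules, stood at 411 CPM (404 to 418) without and 421 CPM (415 to 427) with plasma protein, and its log2 ratio of 0.04 (0.0037 to 0.07) was the lowest of the 7. These 2 genes differed least between the libraries. Fcgr4, a receptor for IgG2a and IgG2b that is best known from monocytes and neutrophils, was rare, its 601 UMIs giving 17.4 CPM (16.0 to 18.9) in plasma-negative cells, and its 1195 UMIs giving 28.5 CPM (26.9 to 30.1) in plasma-positive cells. Its log2 ratio was 0.71 (0.57 to 0.85), and the intervals of its levels did not overlap. Fcgr4 was therefore 1 of 7 genes at 1.5-fold or more, in the higher direction, where 0.323% of the 8355 genes with at least 10 CPM in a library were 1.5-fold or more higher. Of those 8355 genes, 23 had a higher ratio.

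The inhibitory receptor Fcgr2b held 274 CPM (268 to 279) in cells without and 299 CPM (294 to 305) in cells with plasma protein, 0.13 higher on the log2 scale (0.09 to 0.17). Counted together, Fcgr1, Fcgr3 and Fcgr4 gave 4.41 UMIs per Fcgr2b UMI (4.31 to 4.51) in the plasma-negative and 4.21 (4.12 to 4.29) in the plasma-positive library. The activating genes thus outnumbered the inhibitory gene in both, with a slightly lower ratio in cells that carried plasma protein. Of all UMIs of these 4 IgG receptors, Fcgr3 held 52.5% and 51.9%, Fcgr1 27.8% and 27.0%, Fcgr2b 18.5% and 19.2%, and Fcgr4 1.18% and 1.83%.

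Fcer1g, without which the activating receptors are poorly held at the cell surface, reached 2471 CPM (2455 to 2488) in cells without plasma protein. In cells with it Fcer1g reached 2724 CPM (2708 to 2740), and the log2 ratio was 0.14 (0.13 to 0.15). It exceeded the summed activating receptors 2.05-fold (2.03 to 2.07) and 2.16-fold (2.14 to 2.19). Fcgrt was the last of the 6 genes above 50 CPM, with 85.7 CPM (82.6 to 88.8) in plasma-negative and 91.7 CPM (88.8 to 94.6) in plasma-positive cells. Its log2 ratio of 0.10 (0.03 to 0.17) turned to -0.04 when cells were thinned to 1000 UMIs. Its light chain partner B2m was at 1396 and 1610 CPM, a log2 ratio of 0.20 (0.19 to 0.22), so that B2m UMIs outnumbered Fcgrt UMIs 16.3-fold and 17.6-fold. Fcrls, the microglia marker, stood at 1374 CPM (1361 to 1386) without and 1536 CPM (1524 to 1548) with plasma protein. Its log2 ratio of 0.16 (0.14 to 0.18) was the highest of the 6 genes above 50 CPM, and 171 of 3540 genes at that minimum had a higher one.

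Set against all genes, the 7 had a median log2 ratio of 0.13, with 7 of 7 higher. The 8355 genes at 10 CPM or more had a median of -0.04, with 35.7% higher, and the 3540 genes at 50 CPM or more a median of -0.03 and quartiles of -0.09 and 0.04. None of the 6 genes above 50 CPM reached 1.5-fold, where 0.141% of 3540 genes were that much higher and 0 genes that much lower, and none of the 5 above 200 CPM did, where 0.262% of 763 genes were higher. At 2-fold none of the 7 was called, where 0.113% of genes at 50 CPM, 0.227% at 10 CPM and 0.262% at 200 CPM were higher.

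The share of cells with a UMI followed the levels. After thinning, Fcer1g was seen in 87.6% of 9064 cells without plasma protein (86.9% to 88.2%) and in 89.7% of 9759 cells with it (89.1% to 90.3%). Fcrls was seen in 68.7% and 71.8%, Fcgr3 in 52.1% and 53.7%, Fcgr1 in 33.4% and 34.1%, and Fcgr2b in 22.9% and 24.6%. At 1000 UMIs the intervals of the libraries did not overlap for Fcer1g and Fcrls, and they overlapped for Fcgr3, Fcgr1 and Fcgr2b. This changed at 2000 UMIs per cell. Fcgr3 was then seen in 76.8% (75.8% to 77.7%) and 78.8% (78.0% to 79.6%). Fcgr2b was seen in 39.5% (38.4% to 40.5%) and 42.6% (41.6% to 43.6%). At that depth the intervals overlapped for Fcrls (86.7% to 88.1% and 88.0% to 89.3%) and Fcgr1, and not for Fcer1g, Fcgr3 and Fcgr2b. At 1000 UMIs Fcgrt was seen in 8.98% (8.40% to 9.59%) and 8.79% (8.24% to 9.37%), and Fcgr4 in 1.73% (1.47% to 2.02%) and 2.78% (2.46% to 3.12%). At 2000 UMIs per cell the shares were 16.1% (15.3% to 16.9%) and 17.0% (16.2% to 17.7%) for Fcgrt and 3.35% and 5.03% for Fcgr4. Fcgr4 was thus seen in more plasma-positive cells at both depths, whereas the order of the libraries for Fcgrt differed between the depths and its intervals overlapped at each. Without thinning the shares were 92.4% and 94.6% for Fcer1g, 24.3% and 28.6% for Fcgrt, and 5.47% and 9.29% for Fcgr4.

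**Figure D2:**
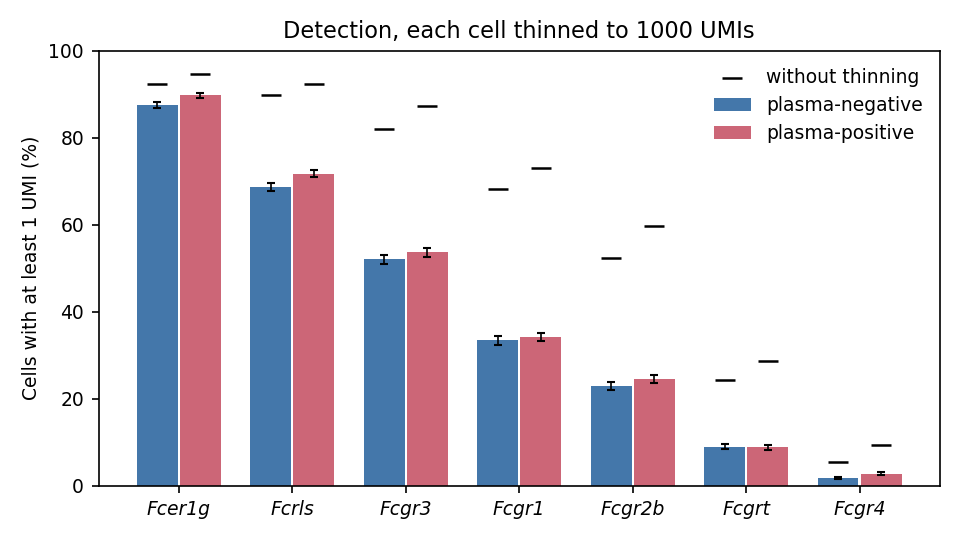
Percent of cells with at least 1 UMI of each gene after each cell was thinned to 1000 UMIs (bars, with exact binomial intervals) and without thinning (black marks), by library. Thinned shares run from 87.6% and 89.7% for Fcer1g to 1.73% and 2.78% for Fcgr4.

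The number of IgG receptor genes seen in a cell was counted among Fcgr1, Fcgr2b, Fcgr3 and Fcgr4. At full depth exactly 3 were seen in 35.5% of the cells without and 42.4% of those with plasma protein, all 4 in 2.93% and 5.47%, and none in 8.15% and 5.31%. At 1000 UMIs these shares were 4.25% and 5.48% for exactly 3 genes, 0.0993% and 0.195% for all 4, and 24.6% and 23.0% for none. These shares depend on depth. Co-occurrence lay near what independent draws would give for Fcgr2b with Fcgr3, at 0.994 and 1.03 times the product of the shares. For Fcgr1 with Fcgr4 it was 1.26 times (66 against 52.4 cells) and 1.24 times (115 against 92.4 cells). For Fcgr3 with Fcgr4 it was 1.17 and 1.14 times. For Fcgr4 with Fcgrt it was 0.780 times (11 against 14.1 cells) and 1.26 times (30 against 23.8 cells), so pairs with Fcgr4 rest on few cells. No interval was computed for these values. The variance of thinned UMIs over their mean, which is 1 for Poisson counts, was 1.33 and 1.36 for Fcer1g and 1.37 and 1.46 for Fcrls. It lay between 1.01 and 1.09 for the other 5 genes. This ratio grows with the mean for the same spread, and Fcer1g and Fcrls have the highest means, so it does not rank the genes.

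Cells were next divided by the transcripts of other genes. A cell counted as interferon-high with at least 3 UMIs, after thinning, of a list of 15 interferon-induced genes such as Ifit3 and Isg15, which held 121 plasma-negative (1.33%) and 488 plasma-positive cells (5.001%). With Apoe, the lipid carrier gene, 158 (1.74%) and 637 cells (6.53%) had at least 3 UMIs. These are ranges of a count and not cell types: 288 and 441 cells lay 1 UMI under the interferon limit, and 108 and 246 under that for Apoe.

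Fcgr4 and Fcgr1 were higher in interferon-high cells of both libraries. Fcgr4 was at 82.6 CPM inside and 17.2 CPM outside in the plasma-negative library, a ratio of 4.80 (2.26 to 9.07) from 10 and 154 UMIs. In the plasma-positive library it was at 84.0 and 26.1 CPM, a ratio of 3.22 (2.25 to 4.50) from 41 and 242 UMIs. Fcgr1 was at 694 against 418 CPM, a ratio of 1.66 (1.32 to 2.06), and at 791 against 413 CPM, a ratio of 1.91 (1.72 to 2.13). With a limit of 2 UMIs the Fcgr1 ratios were 1.26 and 1.596, and the Fcgr4 ratios 2.77 and 2.50. Of genes with at least 50 CPM inside or outside, 12.6% of 3879 in the plasma-negative and 4.52% of 3628 in the plasma-positive library were 1.5-fold or more higher inside. Fcgr4 met that minimum only through the cells in which it was high, so its ratio is not read against these shares. Of the other 6 genes, 1, Fcgr1, was that much higher in each library. None of the 6 was 1.5-fold or more lower, against 14.8% and 7.14% of genes, and the plasma-negative values rest on few cells.

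The other receptor genes lay nearer to 1 or below it. Fcgr3 was at 645 against 770 CPM and at 727 against 803 CPM, ratios of 0.837 (0.661 to 1.05) and 0.906 (0.812 to 1.01). Fcgr2b gave ratios of 1.23 (0.880 to 1.69) and 1.26 (1.08 to 1.47), and Fcer1g of 1.09 (0.971 to 1.21) and 1.19 (1.13 to 1.25). Fcrls was lower in interferon-high cells, with ratios of 0.702 (0.580 to 0.841) and 0.771 (0.708 to 0.837). Fcgrt gave 1.14 (0.602 to 1.95) and 0.790 (0.549 to 1.10), intervals that include 1.

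**Figure D3:**
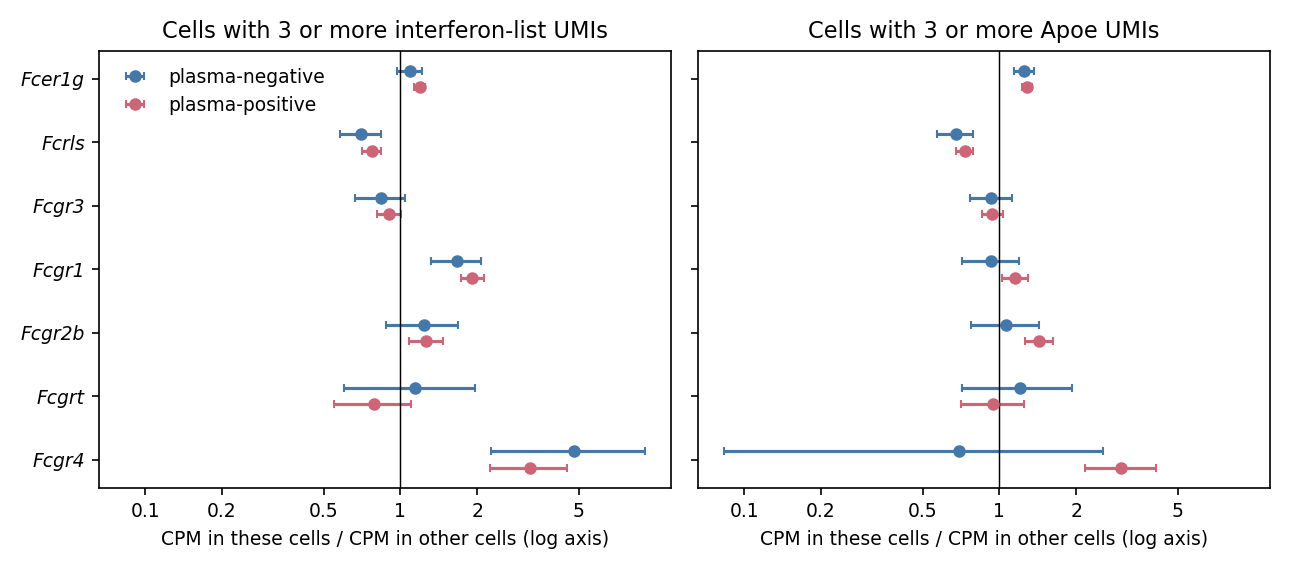
Level of each gene in cells with at least 3 interferon-list UMIs (left) or 3 Apoe UMIs (right), divided by its level in the other cells of the same library, on a log axis with exact conditional binomial intervals. In interferon-high cells Fcgr4 (4.80 and 3.22) and Fcgr1 (1.66 and 1.91) lie to the right of 1 in both libraries, and Fcrls lies to the left of 1 in both panels.

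In Apoe-high cells Fcrls was again lower, at 937 against 1392 CPM in the plasma-negative library and at 1146 against 1565 CPM in the plasma-positive library, ratios of 0.673 (0.568 to 0.791) and 0.732 (0.679 to 0.789). Fcer1g was higher, with ratios of 1.25 (1.14 to 1.36) and 1.29 (1.23 to 1.34). These 2 genes thus lay on opposite sides of 1 in both libraries, although each was higher in the plasma-positive library as a whole. Fcgr2b gave 1.06 (0.772 to 1.42) and 1.43 (1.26 to 1.63), and Fcgr3 0.930 (0.765 to 1.12) and 0.939 (0.854 to 1.03). Fcgr1 gave 0.930 (0.712 to 1.195) and 1.15 (1.02 to 1.29), and Fcgrt 1.21 (0.711 to 1.92) and 0.948 (0.710 to 1.24). Fcgr4 was at 12.7 against 18.2 CPM in the plasma-negative library, from 2 UMIs inside, and at 76.9 against 25.7 CPM in the plasma-positive library, a ratio of 2.999 (2.16 to 4.09). Of the 6 genes other than Fcgr4, 0 were 1.5-fold or more higher and 0 lower in the plasma-negative library, where 7.59% and 16.6% of genes with at least 50 CPM inside or outside were. In the plasma-positive library 0 of these 6 were higher and 0 lower, where 4.24% and 10.4% of genes were. Fcgr4 was under that minimum in the plasma-negative library and met it only through the Apoe-high cells in the plasma-positive one, so it is left out of these counts. Whether the Apoe ratio of Fcgr4 differs between the libraries was not tested, and the plasma-negative interval (0.0836 to 2.55) is wide.

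The Fcgr4 difference between the libraries was then read within classes of cells set by their Apoe and interferon-list UMIs. In cells with under 3 UMIs of each, 8789 plasma-negative and 8771 plasma-positive, the Fcgr4 level was 17.3 CPM without plasma protein (14.7 to 20.3) and 24.3 CPM with it (21.1 to 27.8), a ratio of 1.40 (1.14 to 1.74). In cells with no UMI of either, 6502 and 5780, it was at 16.9 and 22.1 CPM, a ratio of 1.31 (1.01 to 1.70). Over all thinned cells the ratio was 1.603 (1.32 to 1.95). The intervals of these ratios overlapped, and all lay above 1. The cells with no UMI of either are part of the class under 3 UMIs, and both are part of all thinned cells. Whether the Fcgr4 ratio differs between these sets of cells was not tested. The level was highest, at 146 CPM (89.2 to 225) from 20 UMIs, in the 137 plasma-positive cells with at least 3 UMIs of both. Only 4 plasma-negative cells were of that kind, too few to compare. Among cells with under 3 UMIs of each, Fcrls had a ratio of 1.13 (1.10 to 1.16) and Fcer1g of 1.08 (1.06 to 1.10), whereas Fcgr1 was at 418 and 413 CPM, a ratio of 0.988 (0.943 to 1.03).

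**Figure D4:**
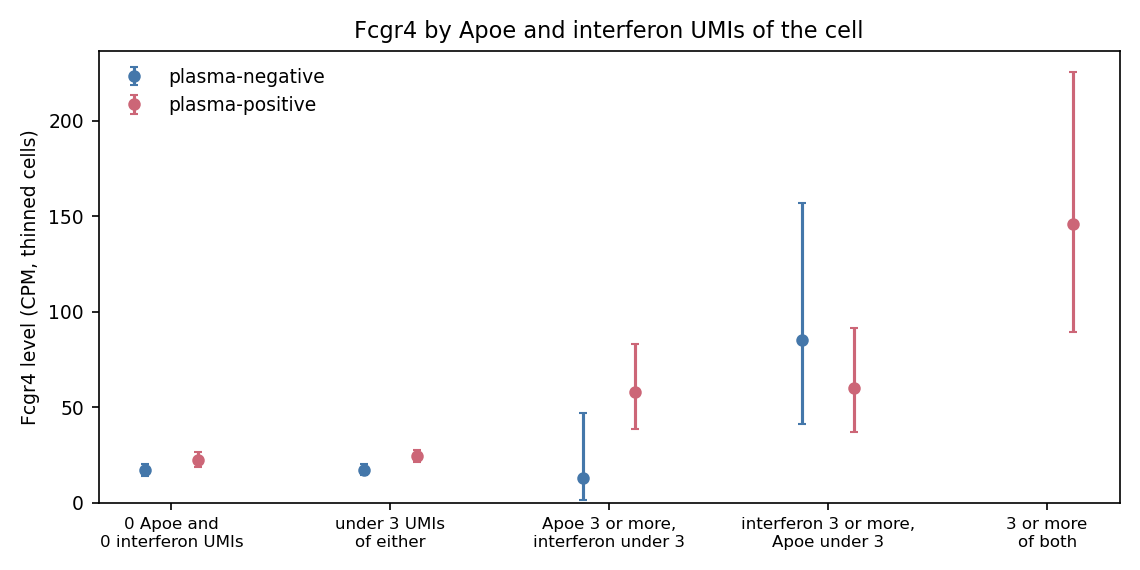
Level of Fcgr4 (CPM over cells thinned to 1000 UMIs, with exact Poisson intervals) by the number of Apoe and interferon-list UMIs in the cell and by library. The first class is part of the second, and the class with 3 or more of both shows the plasma-positive library alone because 4 plasma-negative cells were in it. The plasma-positive level runs from 22.1 CPM in cells with no such UMI to 146 CPM.

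The other states were read in the same way. In cells with at least 3 UMIs of cell cycle genes, 16 and 35 cells, Fcgr3 was at 188 against 769 CPM and at 257 against 801 CPM, from 3 and 9 UMIs, ratios of 0.244 (0.0502 to 0.712) and 0.321 (0.147 to 0.609). Fcgr3 was lower in the cycling range of both libraries. Fcer1g gave 0.851 (0.589 to 1.19) and 0.606 (0.460 to 0.783) there. In 276 and 235 cells with at least 3 UMIs of immediate early genes, Fcgr4 gave ratios of 1.00 (0.321 to 2.39) and 1.03 (0.409 to 2.15), and Fcer1g of 0.941 (0.869 to 1.02) and 0.958 (0.883 to 1.04). Fcgr2b gave 0.695 (0.517 to 0.914) and 0.984 (0.762 to 1.25), Fcgr3 1.10 (0.963 to 1.26) and 0.789 (0.666 to 0.928), and Fcgr1 0.953 (0.782 to 1.15) and 1.22 (1.01 to 1.46). For each of these 3 genes the interval excluded 1 in a single library. Cells with at least 3 UMIs of MHC class II genes numbered 13 in each library and held 1 and 0 Fcgr4 UMIs. In them Fcrls was lower in both libraries, at 615 against 1385 CPM and at 769 against 1538 CPM, from 8 and 10 UMIs inside. The intervals of its ratio were 0.192 to 0.876 and 0.240 to 0.920. Fcgr2b gave ratios of 2.58 (1.18 to 4.91) and 1.31 (0.425 to 3.06), from 9 and 5 UMIs inside. For the states of this paragraph the share of all genes differing as much was not computed.

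Depth and mitochondrial share differed between the libraries, so the ratios were also read within bins. For cells with 2000 to under 4000, 4000 to under 8000, and 8000 or more UMIs, the Fcgr4 ratio was 1.63 (1.40 to 1.90), 1.67 (1.43 to 1.95) and 1.49 (1.11 to 2.01). Under 2000 UMIs it was 1.10 (0.565 to 2.14), from 22 and 19 UMIs. Within 4 bins of mitochondrial share it ran from 1.47 to 1.86. The interval thus lay above 1 in 7 of these 8 bins and included 1 in the shallowest. The depth bins and the mitochondrial bins divide the same cells of the same libraries, so they are not separate checks. Fcrls ratios ran from 1.04 to 1.13 over the depth bins and from 1.10 to 1.15 over the mitochondrial bins, and Fcer1g ratios from 1.04 to 1.12 and from 1.06 to 1.17. Fcgr1 ran from 0.971 to 1.06 over the depth bins. The summed markers of border-associated macrophages, which are known to hold Fc receptors, and the monocyte marker Ms4a4c were also higher in the plasma-positive library. Without the 152 and 248 cells that held 2 markers of any other cell type the log2 ratio of Fcgr4 was 0.68. Of those cells 133 and 195 held oligodendrocyte lineage markers, 0 and 11 border-associated macrophage markers, and 7 and 16 monocyte markers. The part of macrophages or monocytes in the Fcgr4 difference was not tested.

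Across single cells at 1000 UMIs, the genes most like Fcer1g were Cst3 (Pearson's r of 0.39 and 0.34 in the 2 libraries), C1qb (0.28 and 0.28) and Tmsb4x (0.28 and 0.25), over 9064 and 9759 cells that share a library. For the other 6 genes the highest r among the 3 most alike genes was 0.12, of Fcgr3 with Cst3 in the plasma-negative library, values too weak to read in sparse counts. For Fcgr4 and Fcgr1 the 3 genes were the chemokine Ccl12, Ifitm3, which is on the interferon list, and a C1q gene (C1qb and C1qa). Those of Fcgr2b were C1qa, C1qb and Lyz2, and those of Fcgr3 were Cst3, Tmsb4x and C1qb. Those of Fcgrt were Hexa, Rps24 and Cst3, and those of Fcrls were Ctsd, Ltc4s and Olfml3. Among the 21 pairs of the 7 genes, r lay between -0.01 and 0.05.

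Among other genes of the pathway with at least 10 CPM, none differed as much as Fcgr4. Of 88 genes on 6 lists, 62 reached 10 CPM, 28 were higher, 34 lower and 0 at 1.5-fold or more in either direction, where 0.323% of genes were higher and 0.0239% lower by that much. Among the 12 other Fc receptors 2 reached 10 CPM, Fcrl1 at 22.1 and 22.1 CPM and the cytosolic antibody receptor Trim21 at 13.6 and 15.1 CPM. Fcer1a, Ms4a2, Fcmr, Fcamr and Fcrl6 had 0 UMIs in both libraries, which allows up to 0.0869 and 0.0715 CPM. Antibody receptors of this list were thus scarce or not detected. Counts of higher genes on the lists are read beside all 8355 genes at 10 CPM or more. Of those, 35.7% were higher, with a median log2 ratio of -0.04. The medians of the lists below lie close to 0, and another scaling adds up to 0.04 to every log2 ratio, so a median or gene within 0.04 below 0 has no firm direction.

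Of the ITAM signalling list, 8 of 17 genes were higher and 9 lower, with a median log2 ratio of -0.005. Tyrobp, the adaptor related to the gamma chain, was the most abundant and had the highest ratio, at 2673 and 2997 CPM, a log2 ratio of 0.17 (0.15 to 0.18), close to that of Fcer1g. The adaptor Gab2 had the lowest, -0.23 (-0.36 to -0.11), at 28.6 and 24.3 CPM. The inhibitory signalling list had 2 of 11 genes higher, 9 lower and a median of -0.09, where 35.7% of all 8355 genes were higher and their median was -0.04. Its most abundant gene, the collagen receptor Lair1, was at 949 and 866 CPM, a log2 ratio of -0.13 (-0.15 to -0.11). Pirb, at 0.17 (0.04 to 0.30), and the phosphatase gene Ptpn11, at -0.19 (-0.31 to -0.07), marked its ends. Fcgr2b, at 0.13, thus lay on the other side of 0 from the median of this list.

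Of the FcRn partner and endosome recycling list, 7 of 16 genes were higher and 9 lower, with a median of -0.01. As for every list here, 35.7% of all 8355 genes were higher. B2m was its most abundant gene and had the highest ratio, and the early endosome tether Eea1 the lowest, -0.21 (-0.30 to -0.11), at 53.5 and 46.4 CPM. Of other receptors for plasma proteins, 2 of 5 were higher, with a median of -0.03. The albumin receptor genes Cubn and Lrp2 had 3 and 1 UMIs and 0 and 0 UMIs. Lrp1, a broad endocytic receptor, was at 370 and 372 CPM, Stab1 at 176 and 182 CPM, and Tfrc, the transferrin receptor, at 14.4 and 10.5 CPM, a log2 ratio of -0.45 (-0.64 to -0.26). Of the oxidase and actin genes that act in phagocytosis, 8 of 11 were higher, with a median of 0.05, from -0.03 for Ncf4 to 0.12 (0.07 to 0.16) for Actr3. Cyba, the most abundant, was at 1237 and 1217 CPM. Its partner in the oxidase, Cybb, was below 10 CPM, at 2.52 and 9.003 CPM, a log2 ratio of 1.84 (1.498 to 2.19). Among list genes below that level, Cd36 at 1.55 (0.30 to 3.01), Mrc1 at 0.59 (0.23 to 0.96) and Rab4a at 0.36 (0.08 to 0.65) also had intervals above 0. None had an interval below 0. All are named after their values were seen, and no share of all genes was computed below 10 CPM.

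**Figure D5:**
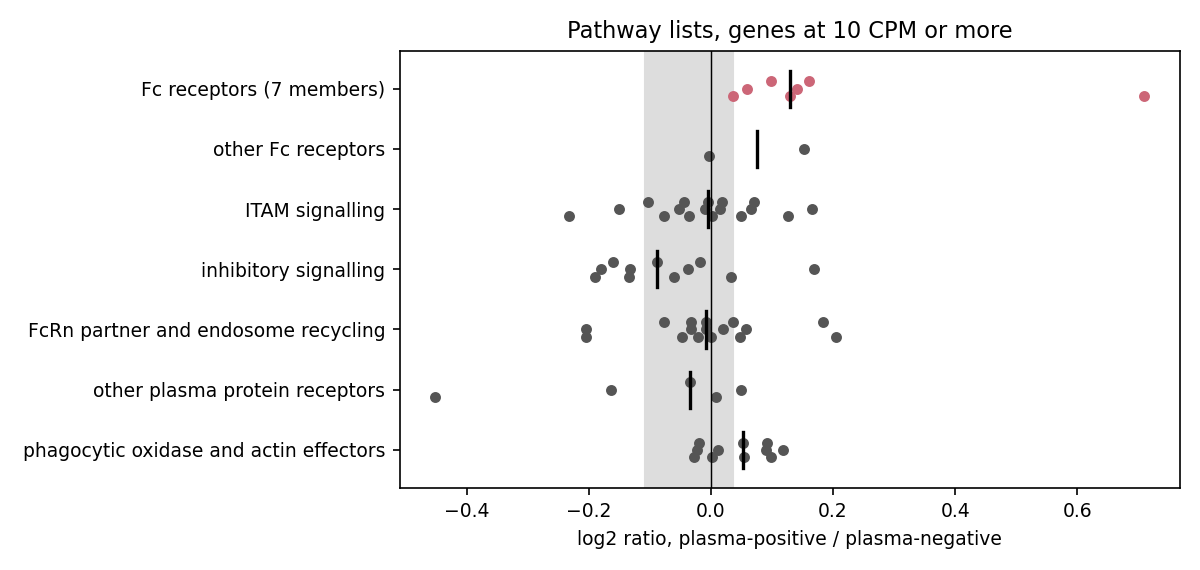
Log2 ratio of each gene at 10 CPM or more, plasma-positive over plasma-negative, for the 7 Fc receptor genes and 6 lists of related genes, with the median of each list (bar) and the quartiles of all 8355 genes at that minimum (grey). Fcgr4 stands apart at 0.71, and no other gene shown reaches 1.5-fold.

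On chromosome 1 the stretch from Fcgr2b to Fcer1g held 11 protein-coding genes of the tables. Sdhc, a mitochondrial enzyme gene and the only one of the other 7 above 10 CPM, was at 40.2 and 41.2 CPM, a log2 ratio of 0.04 (-0.07 to 0.14).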

How the data were processed

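Per the file headers, the authors deposited unnormalized UMI counts for each gene in each cell from Cell Ranger 6.1.2. The submitters' processing notes name version 3.0.1 of that program. The genome build, annotation, cell calling and use of strand were not given in the sources used here, and cell barcodes were not used here. Counts were summed per library over the kept cells and divided by the library total (CPM). Genes were compared at a minimum of 50 CPM in at least 1 library, and at 10 CPM for Fcgr4 and the lists, with no pseudocount. Cells are not replicates, so no test was run. Sums carry exact Poisson, shares exact binomial (Clopper-Pearson) and ratios exact conditional binomial 95% intervals (Python 3.11.15 with scipy 1.17.1, pandas 2.3.3 and numpy 2.4.6). These intervals hold no variation among animals, sorting runs or library preparations.

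Doublets were kept. Scrublet (scanpy 1.11.5) did not work here, marking 0 cells as doublets, and removing the 778 and 859 highest scores, the number expected at 0.8% per 1000 cells, was an alternative. Other alternatives were stricter cell filters, TMM scaling (edgeR 4.0.16, R 4.3.3), median-of-ratios scaling, a total without mitochondrial and ribosomal genes, a mean over cells, and thinning. Genes were named by rule: the 7 genes, B2m, the most abundant gene and the highest and lowest ratio of each list at 10 CPM, and the 3 genes most correlated with each of the 7. Others (Cubn, Lrp2, Cybb, Cd36, Mrc1, Rab4a, Sdhc and genes at 0) were chosen with their values in view. The 7 genes, the lists and the markers were chosen with earlier results of these data known. The interval code was tested on simulated counts, and the thinning code on part of the plasma-negative cells. RefSeq promoters and GENCODE M21 coordinates are on GRCm38, which need not be the authors' build. A planned comparison of the receptor proteins was not run.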

Additional observations from a re-analysis of the deposited data

How the results depend on the processing

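Each of the 7 genes was recomputed under 10 alternatives. The median log2 ratio over them lay between 0.12 and 0.17, and Fcgr4 was the single gene at 1.5-fold or more under all 10. Its log2 ratio ran from 0.587 (thinned to 2000 UMIs), barely past 1.5-fold, to 0.75 (TMM scaling). Scaling adds the same upward amount to every gene, at most 0.04, so it could not take Fcgr4 under 1.5-fold. The ratio of Fcgrt turned to -0.0361 when thinned to 1000 UMIs, with 859 and 902 UMIs left, and was 0.11 at 2000 UMIs. At 1.5-fold or more, 5 genes were higher and 0 lower at 50 CPM, 27 and 2 at 10 CPM, which compares more genes, and 2 and 0 at 200 CPM. With no list minimum the medians were -0.0662 for other Fc receptors, -0.0598 for inhibitory signalling and 0.0009 for FcRn recycling, and at 50 CPM that of other plasma protein receptors was 0.029 from 2 genes. The activating to inhibitory ratio was 4.56 in the plasma-negative library at 2000 UMIs, and 2.84 and 2.70 in the 2 libraries with Fcgr3 alone as activating. Of 177 recomputed values, 120 stayed within counting error or within 1.5 times for counts, 53 moved further and 4 reversed. All shares of cells with a UMI, which change with depth, are among the 53. A ratio inside over outside a state counted as reversed only if its main value was 1.5-fold or more. Smaller ratios that crossed 1 were not counted so, such as Fcgr3 in Apoe-high (0.930 to 1.05) and Fcgrt in interferon-high (1.14 to 0.953) plasma-negative cells. Shares of cells with a UMI were higher at 2000 than at 1000 UMIs. Without thinning, which brings back the shallower cells, they were higher again except for Fcer1g. Its shares were then 92.4% and 94.6%, against 98.0% and 98.7% at 2000 UMIs. No paired analysis was possible because a single library stood for each group, so nothing could be paired or left out. All alternatives were planned. Fcgr4 and cells in the smaller states are limited by depth.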
